A study of Homo sapiens with 54 samples.

Results

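The MHC class I antigen presentation genes described here are 9 of the 27470 genes of the table, taken by symbol: HLA-B and HLA-C, which encode class I heavy chains, B2M, their common light chain, TAP1 and TAP2, the peptide transporter, TAPBP (tapasin), PSMB8 and PSMB9, catalytic subunits of the immunoproteasome, and NLRC5, a transcriptional activator of class I genes. All 9 were in the table and passed the filter on low values in both lines. RNA was measured with 3′ mRNA sequencing in 54 libraries from 2 human triple negative breast cancer (TNBC) lines, SUM1315, which is BRCA1 mutant, and MDA-MB-468, in which BRCA1 is wild type, in 9 conditions per line with 3 libraries each. Parental cells were left untreated or were exposed overnight to the PARP inhibitor olaparib, to cisplatin (CDDP), or to both. Olaparib was used at 8 µM in SUM1315 and 3 µM in MDA-MB-468, and CDDP at 2 or 4 µM in SUM1315 and 1 or 2.5 µM in MDA-MB-468. Olaparib resistant (OlaR) cells were selected from each line by long culture in rising olaparib and were kept in 25 µM (SUM1315) or 15 µM (MDA-MB-468), with or without the same CDDP doses. OlaR and olaparib-treated parental cells therefore differ in selection, in olaparib dose and in length of exposure, which cannot be told apart. Each line has 1 OlaR population, and nothing in the labels says that the 3 libraries of a condition came from separate cultures, so p-values measure the spread between these libraries, which may be technical.

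Class I molecules display peptides cut from proteins of the cell to cytotoxic T cells. The immunoproteasome cuts the peptides, TAP1 and TAP2 carry them into the endoplasmic reticulum, tapasin helps to load them, and the heavy chain leaves for the surface only with β2-microglobulin and a peptide. Interferons induce most of these genes, in part through IRF1, and NLRC5 acts on class I promoters together with RFX and NF-Y factors.

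Most of the genes lie in the MHC on chromosome 6 (GENCODE, GRCh38, the build named for the deposited data). HLA-C (ENSG00000204525) is at chr6:31268749-31272130 and HLA-B (ENSG00000234745) at chr6:31353872-31367067, both on the minus strand. TAP2, PSMB8, PSMB9 and TAP1 form a cluster from chr6:32821833-32838739 (TAP2) to chr6:32845209-32853816 (TAP1), in which the annotated span of PSMB9 on the plus strand overlaps PSMB8 and TAP1 on the minus strand. TAPBP is at chr6:33299694-33314284, B2M at chr15:44711358-44718851 and NLRC5 at chr16:56989485-57083531. The strand setting of the counting is not given in the sources used here, and HLA-B and HLA-C are similar in sequence and vary between people, so reads of PSMB8, PSMB9, TAP1, HLA-B and HLA-C could have been assigned to a neighbour or lost.

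The reference sequence before the start of transcription is shown for the heavy and light chain genes, which were all lower in OlaR SUM1315 cells, and for TAP1 and PSMB9, which lie back to back and of which PSMB9 passed the test in that comparison and TAP1 did not. The sequences are RefSeq promoters (GRCh38.p14), given 5′ to 3′ on the gene's strand over the 250 bases before the start, and 8 of the 9 genes had an entry. Capitals mark matches, on either strand, to an interferon response element core (GAAA, any 2 bases, GAAA), a gamma activated site (TTCNNNGAA), a κB motif or a CCAAT box.
HLA-B, chr6:31357180-31357429, minus strand: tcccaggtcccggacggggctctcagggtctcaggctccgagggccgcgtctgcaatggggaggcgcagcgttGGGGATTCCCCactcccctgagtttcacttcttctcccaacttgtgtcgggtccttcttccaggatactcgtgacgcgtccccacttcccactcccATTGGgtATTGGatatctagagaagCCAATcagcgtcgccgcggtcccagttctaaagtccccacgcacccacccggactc
HLA-C, chr6:31272093-31272342, minus strand: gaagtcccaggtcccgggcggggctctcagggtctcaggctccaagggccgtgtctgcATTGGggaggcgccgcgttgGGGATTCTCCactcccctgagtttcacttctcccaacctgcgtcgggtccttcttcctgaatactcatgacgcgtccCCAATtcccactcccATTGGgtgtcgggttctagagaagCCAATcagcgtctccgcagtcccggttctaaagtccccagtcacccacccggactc
B2M, chr15:44711267-44711516, plus strand: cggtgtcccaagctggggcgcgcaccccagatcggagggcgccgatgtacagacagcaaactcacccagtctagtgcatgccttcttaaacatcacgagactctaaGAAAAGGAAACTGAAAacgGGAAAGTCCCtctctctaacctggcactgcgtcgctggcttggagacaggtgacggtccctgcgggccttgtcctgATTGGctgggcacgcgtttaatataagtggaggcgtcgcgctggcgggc
TAP1, chr6:32853705-32853954, minus strand: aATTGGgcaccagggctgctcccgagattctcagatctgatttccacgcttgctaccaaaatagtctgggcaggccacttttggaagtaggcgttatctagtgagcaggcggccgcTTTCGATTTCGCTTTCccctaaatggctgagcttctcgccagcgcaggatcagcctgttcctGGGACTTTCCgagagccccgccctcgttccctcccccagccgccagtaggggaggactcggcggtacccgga
PSMB9, chr6:32853942-32854191, plus strand: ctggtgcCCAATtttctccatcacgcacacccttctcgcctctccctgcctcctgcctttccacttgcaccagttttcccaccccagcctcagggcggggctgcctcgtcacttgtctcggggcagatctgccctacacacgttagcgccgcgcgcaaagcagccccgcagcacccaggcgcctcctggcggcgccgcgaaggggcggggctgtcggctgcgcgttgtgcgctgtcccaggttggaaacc

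In the whole windows of 300 bases, which reach 50 bases past the start, HLA-B held 2 overlapping κB matches and 3 CCAAT boxes, and HLA-C held 1 κB match and 4 CCAAT boxes, with no match to the interferon response element core in either. B2M held 2 overlapping interferon response element cores, 1 κB match and 1 CCAAT box. TAP1 held 2 such cores, also overlapping, and 2 κB matches, of which 1 lies after the start, while the PSMB9 window held neither. Of the 35116 promoters of that length, 3.57% held the interferon response element core, 7.66% the gamma activated site, 11.3% the κB motif and 34.6% a CCAAT box. A cyclic AMP response element half-site (TGACG), not in capitals above, was in HLA-B, HLA-C, B2M, TAP2, PSMB8 and PSMB9 and in 24.6% of all promoters. TAPBP had 2 interferon response element cores and 1 κB match, TAP2 had 1 core, and PSMB8 had 1 at the second of its 2 starts. The gamma activated site was matched only at the second starts of TAP1 and PSMB8, at 1 place each, and the second start of TAP1 held no other of these motifs. A match is a run of letters and does not show that a factor was bound. Elements that depart from these exact patterns are missed, so the lack of a match, as in HLA-B and HLA-C, does not show that a promoter lacks the element.

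The libraries held 2070301 to 9268162 reads, and OlaR libraries were shallower than parental ones in both lines (medians 3900438 against 6173974 in SUM1315, and 4455837 against 7331369 in MDA-MB-468). Values are adjusted read counts, that is reads per gene that the authors equalised to a common library size of 5585170, and levels of different genes are not compared with each other. Of the epithelial markers, EPCAM, CDH1 and KRT19 were at or near 0 in SUM1315, with 5 reads at most in a library, and the other 3 of the list were detected (KRT8 at 17.7 to 154, KRT18 at 231 to 598 and KRT5 at 28.4 or less), while EPCAM ranged from 2631 to 3793 in MDA-MB-468, and VIM ranged from 7929 to 13246 in SUM1315 and from 7.99 to 53.8 in MDA-MB-468. The leukocyte markers PTPRC and CD3E had at most 8 reads in any library, CD68 at most 17, and CD14 ranged from 9.12 to 459 in SUM1315. Equalisation does not remove the larger counting error of shallow libraries, and the part of depth in the OlaR results was not tested. The third untreated SUM1315 library stood apart for several of the genes, at 409 for HLA-C against 792 and 1121, at 255 for TAP2 against 386 and 466, and at 3256 for TAPBP against 2448 and 2494. Called changes that it moved by over 1.5 times, or whose call it ended, are given with and without it. Lower RNA per cell and fewer cells of a kind cannot be told apart in such bulk samples.

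**Figure D1:**
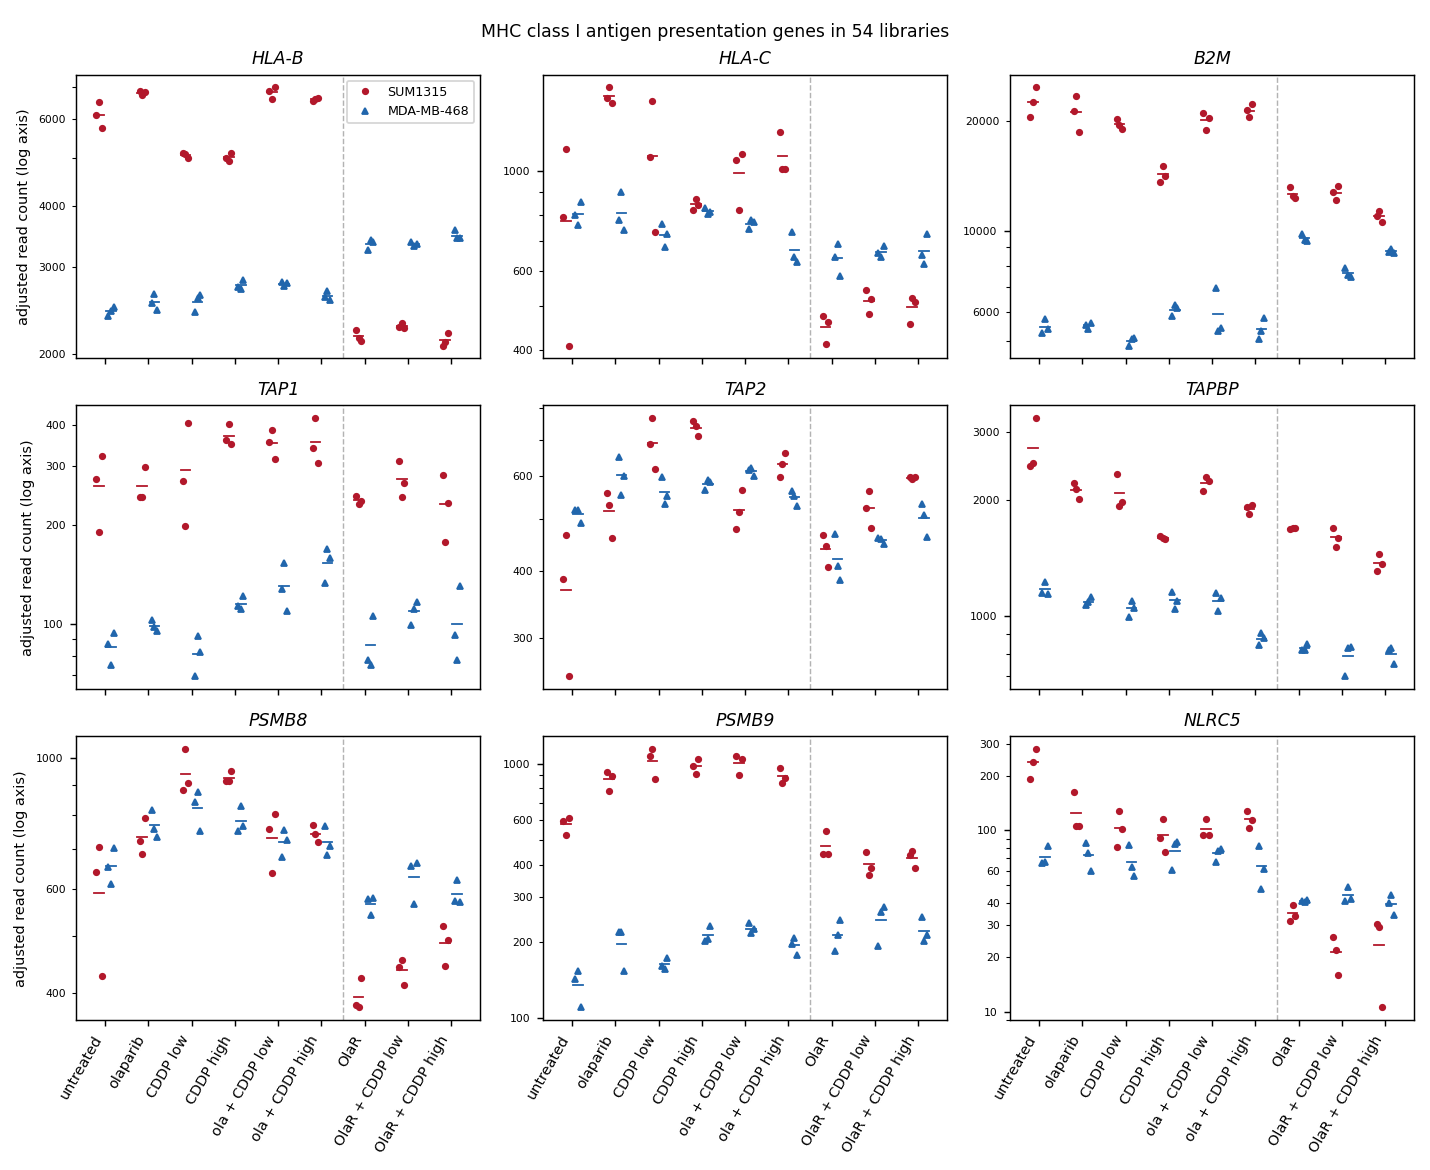
Adjusted read count (log axis) of each gene in the 9 conditions, with 1 point per library, short lines for the means of 3 libraries and a dashed line between parental and OlaR conditions. HLA-B is at most 2314 in all 9 OlaR SUM1315 libraries and at least 4944 in all 18 parental ones, while in MDA-MB-468 the OlaR libraries are the higher ones.

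The comparison of OlaR with olaparib-treated parental cells asked which genes changed with acquired resistance. In SUM1315, 7 of the 9 genes were lower in OlaR cells at an adjusted p of at most 0.05 (limma with an intensity trend and Benjamini-Hochberg adjustment, used for every adjusted p here), and none was higher. Over all 13133 genes tested, 25.7% were lower and 21.6% higher. The median log2 fold change was -0.87 over the 9 genes and -0.05 over all genes. In MDA-MB-468, 5 were lower and 2 higher, where 27.9% of 13012 genes were lower and 23.6% higher, and the medians were -0.33 and -0.03.

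The heavy chain genes fell in SUM1315, with NLRC5 by the most of the set. HLA-B was at 6847, 6719 and 6823 with olaparib and at 2241, 2153 and 2123 in OlaR cells, a log2 fold change of -1.65 ± 0.07 (SE), or 3.13-fold lower (adjusted p = 3.7e-19). Every OlaR library lay below every parental one. In MDA-MB-468, HLA-B rose, from 2545, 2655 and 2458 to 3261, 3416 and 3378 (0.39 ± 0.05 (SE), adjusted p = 9.8e-10), again without overlap. HLA-C, the other heavy chain gene of the set, was at 1453, 1537 and 1421 with olaparib and 475, 412 and 461 in OlaR SUM1315 cells (-1.71 ± 0.20 (SE), adjusted p = 2.5e-08). Its untreated SUM1315 libraries, at 792, 1121 and 409, included one below every OlaR library. In MDA-MB-468, HLA-C fell by less, from 778, 900.5 and 739 to 645, 690.1 and 585 (-0.33 ± 0.08 (SE), adjusted p = 0.00026).

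B2M, needed by every class I heavy chain, moved in opposite directions in the lines. In SUM1315 it went from 21285, 23358 and 18674 to 13158, 12485 and 12262 (-0.73 ± 0.09 (SE), adjusted p = 3.7e-08). In MDA-MB-468 it went from 5526, 5397 and 5579.6 to 9821, 9438 and 9375, or 1.73-fold higher (0.79 ± 0.06 (SE), adjusted p = 2.1e-16). The groups did not overlap in either line. CD14, a leukocyte marker, was lower in OlaR cells of both lines (means 24.9 against 67 in SUM1315 and 4.84 against 28 in MDA-MB-468), with the 5 leukocyte markers summing to 25.4 to 39.1 in OlaR and 66.4 to 73.9 in olaparib-treated SUM1315 libraries, and to 5.09 to 9.63 and 21 to 39.1 in MDA-MB-468. Both fibroblast markers tested, COL1A1 and PDGFRB, were lower in OlaR SUM1315 cells (median -1.60), with a sum of 155 to 216 against 531 to 599.6 over the 3 of the list. Of the 4 mesenchymal markers, 3 were lower and FN1 was higher there (median -0.92), with a sum of 11565 to 12165 against 15063 to 15662. The part of these markers in the results was not tested.

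NLRC5, the class I activator, was lower in both OlaR populations. In SUM1315 its values were 193, 238 and 279 untreated, 163, 105 and 106 with olaparib and 31.7, 38.9 and 33.8 in OlaR cells, 3.45-fold lower than with olaparib (-1.78 ± 0.28 (SE), adjusted p = 3.2e-06). The OlaR values rest on 20 to 23 reads per library. In MDA-MB-468 it went from 85.3, 74.8 and 59.6 to 40.7, 40.5 and 41.2 (-0.81 ± 0.21 (SE), adjusted p = 0.0011). HLA-B and B2M rose in MDA-MB-468 OlaR cells in which NLRC5 fell.

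The immunoproteasome genes both fell in SUM1315, and PSMB8 alone passed the test in MDA-MB-468. PSMB8, the chymotrypsin-like subunit, was at 724, 686 and 792 with olaparib and 381, 378 and 423 in OlaR SUM1315 cells (-0.90 ± 0.12 (SE), adjusted p = 3.7e-07), and PSMB9 was at 931, 779 and 898 and 441, 542 and 442 (-0.87 ± 0.11 (SE), adjusted p = 1.3e-07). In MDA-MB-468, PSMB8 fell from 815, 759 and 734 to 577, 542 and 578 (-0.44 ± 0.07 (SE), adjusted p = 1.8e-06), while PSMB9, at 218, 218 and 153 and 184, 212 and 243, did not pass the test (0.13 ± 0.14 (SE), adjusted p = 0.45) and its groups overlapped.

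Among the transport and loading genes, TAP1 did not pass the test in either line (-0.13 ± 0.19 (SE), adjusted p = 0.6, in SUM1315, and -0.21 ± 0.17 (SE), adjusted p = 0.31, in MDA-MB-468). Its SUM1315 values were 242, 242 and 298 with olaparib and 244, 231 and 235 in OlaR cells. TAP2 fell in MDA-MB-468, from 650.3, 552 and 599.8 to 467.5, 409 and 384 (-0.52 ± 0.08 (SE), adjusted p = 1.4e-07), and had a log2 fold change of -0.23 ± 0.13 (SE) in SUM1315 (adjusted p = 0.17). TAPBP, which helps to load peptides, went from 2214, 2137 and 2012 to 1682, 1693 and 1689.8 in SUM1315 and from 1071, 1089 and 1120.1 to 817, 821 and 847 in MDA-MB-468, and fell in both (-0.33 ± 0.09 (SE) and -0.40 ± 0.07 (SE), adjusted p = 0.0036 and 1.3e-06).

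**Figure D2:**
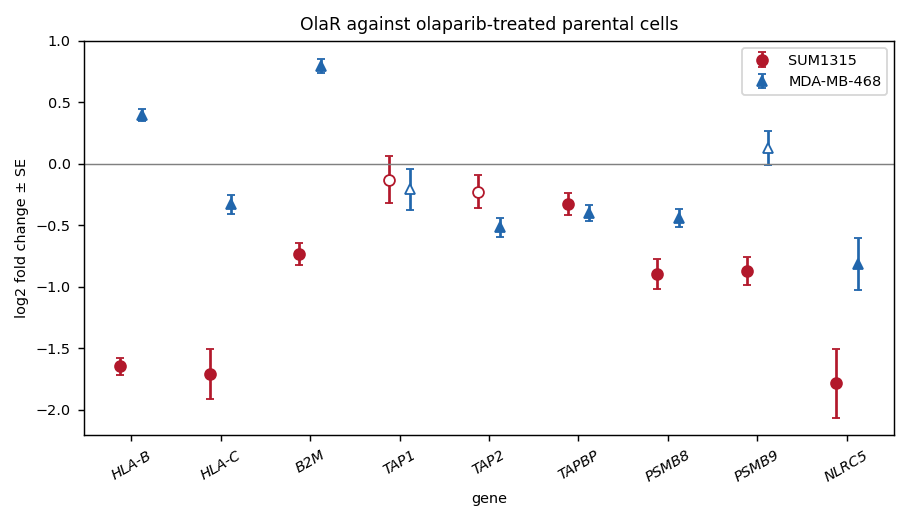
Log2 fold change with its standard error for each gene between OlaR and olaparib-treated parental cells (3 libraries each), with circles for SUM1315, triangles for MDA-MB-468 and filled symbols for an adjusted p of at most 0.05. HLA-B and B2M lie below 0 in SUM1315 and above 0 in MDA-MB-468, and NLRC5 and TAPBP lie below 0 in both.

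The difference between the lines was tested in a fit of all 54 libraries. It passed the test for 6 of the 9 genes, each more negative in SUM1315, where 21.4% of 14460 genes were more negative and 20.3% more positive. The difference of log2 fold changes was -2.04 ± 0.06 (SE) for HLA-B (adjusted p = 1.9e-28), -1.53 ± 0.11 (SE) for B2M (adjusted p = 2.9e-16) and -1.38 ± 0.25 (SE) for HLA-C (adjusted p = 1.1e-05). PSMB9 differed by -1.0 ± 0.19 and PSMB8 by -0.45 ± 0.15 (adjusted p = 2.3e-05 and 0.011). NLRC5, at -0.97 ± 0.36 (SE) (adjusted p = 0.025), lost its call when reads recovered from the adjusted counts were tested with limma voom, and without library MDA-MB-468 olaparib 3, SUM1315 olaparib 1 or SUM1315 OlaR 1 (-0.91 to -0.76, adjusted p = 0.0527 to 0.0969). TAPBP had a difference of 0.07 ± 0.11 (SE), TAP1 of 0.08 ± 0.27 (SE) and TAP2 of 0.29 ± 0.16 (SE), none past the threshold.

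Other genes of the pathway were read from lists. The list counts stand beside shares over all genes of 25.7% lower and 21.6% higher in SUM1315, and 27.9% lower and 23.6% higher in MDA-MB-468. Of 12 other class I pathway genes tested, 3 were lower and 4 higher in OlaR SUM1315 cells (median -0.02), and 3 lower and 5 higher in OlaR MDA-MB-468 cells (median 0.40). In SUM1315 the 3 lower ones included HLA-F (-0.91 ± 0.19, adjusted p = 0.00017) and PSMB10, another immunoproteasome subunit (-0.81 ± 0.15, adjusted p = 2.8e-05). The 4 that went the other way are not named here, so these 2 do not stand for the list. In MDA-MB-468, PSMB10 rose (0.98 ± 0.10, adjusted p = 4.3e-12). Of the 17 regulators of class I genes, 10 were lower and 1 higher in SUM1315 (median -0.51), led by the kinase JAK2 (-3.17 ± 0.24, adjusted p = 1.9e-12), the cytokine signalling suppressor SOCS1 (-2.25 ± 0.33, adjusted p = 1.3e-06) and the interferon gamma receptor chain IFNGR2 (-1.61 ± 0.17, adjusted p = 2e-09). In MDA-MB-468, 6 were lower and 3 higher (median -0.14), led by JAK2 (-1.07 ± 0.31, adjusted p = 0.0034).

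Of the 24 interferon response genes, 18 were lower and 0 higher in OlaR SUM1315 cells (median -1.06), led by IFI44L (-3.88 ± 0.32, adjusted p = 7.2e-12), IFIT2 (-3.32 ± 0.16, adjusted p = 8.6e-18) and OASL (-3.08 ± 0.15, adjusted p = 1.3e-17). In MDA-MB-468, 20 were tested, of which 3 were lower and 8 higher (median 0.25), led by IFI44 (2.85 ± 0.73, adjusted p = 0.00088), whose olaparib-treated libraries averaged an adjusted count of 1.19, and by IFI6 (1.95 ± 0.24, adjusted p = 1.5e-09). Of the constitutive proteasome subunits, which the immunoproteasome subunits replace, 1 of 3 rose in SUM1315 (PSMB6, 0.63 ± 0.10, adjusted p = 3.7e-06) and 1 of 3 fell in MDA-MB-468 (PSMB5, -0.55 ± 0.06, adjusted p = 2.6e-11). Of 5 class I-like stress ligands, 3 rose in SUM1315 and 2 in MDA-MB-468, where MICB rose most (2.24 ± 0.22, adjusted p = 1.5e-12). Among the class II genes, 5 were tested in SUM1315 with 2 higher and 1 lower (median 0.58), and 2 in MDA-MB-468 with 1 lower (median -0.26).

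Genes near the set on chromosome 6, from the start of HLA-F to the end of TAPBP (chr6:29722775-33314284), were read in the same fit. Of 83 such neighbours tested, 31 were higher and 8 lower in OlaR SUM1315 cells, with a median log2 fold change of 0.23. In MDA-MB-468, 7 of 78 were higher and 44 lower, with a median of -0.43. Over all genes tested, 21.6% were higher and 25.7% lower in SUM1315 (median -0.05), and 23.6% and 27.9% in MDA-MB-468 (median -0.03). The reason for the shift of the neighbours was not tested.

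**Figure D3:**
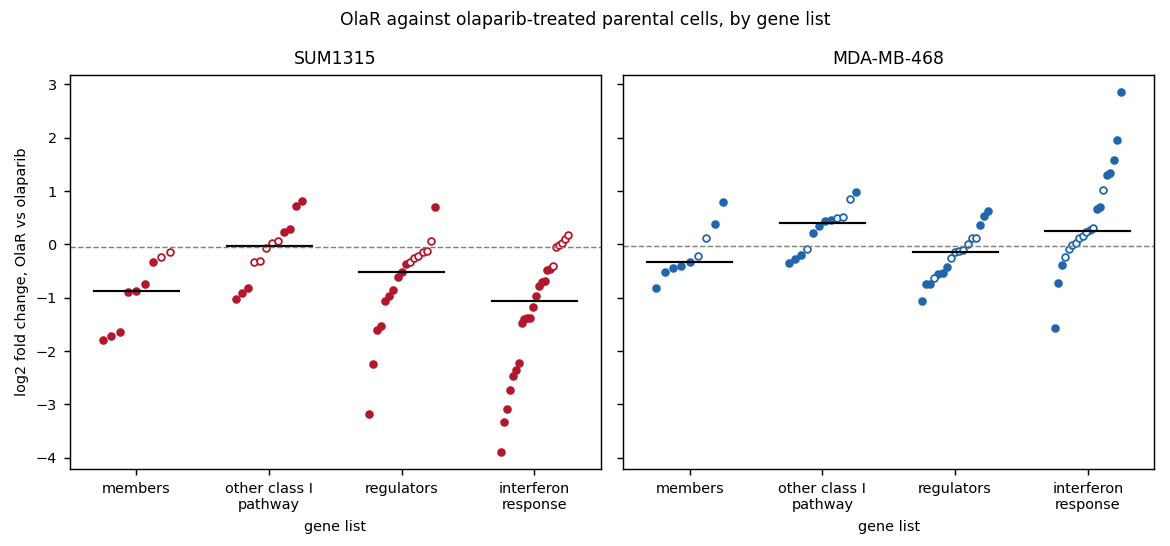
Log2 fold change between OlaR and olaparib-treated parental cells for the 9 genes and for 3 lists, with 1 point per gene tested, filled for an adjusted p of at most 0.05, black lines for list medians and a dashed line for the median of all genes. In SUM1315 the interferon response genes reach down to -3.88 (IFI44L), and in MDA-MB-468 they lie between -1.56 (IRF7) and 2.85 (IFI44).

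The comparisons of each drug alone with untreated cells asked what overnight exposure did. In SUM1315 the set split under 4 µM CDDP: the immunoproteasome genes PSMB8 and PSMB9 and the transporter genes TAP1 and TAP2 rose, while B2M, HLA-B, TAPBP and NLRC5 fell. At 4 µM, 4 genes were higher and 4 lower (22.2% and 21.7% of all genes). At 2 µM, where neither B2M nor TAP1 passed the test and HLA-C did, 4 were higher and 3 lower (19.4% and 14.5%). With olaparib, 4 were higher and 2 lower (18.9% and 17.1%). These comparisons share the untreated libraries. The medians were 0.24, 0.12 and 0.15, and those over all genes lay between -0.00 and 0.01. The median at 4 µM is the value of HLA-C and turned to -0.16 without the third untreated library, while the other medians were 0.15 (2 µM) and 0.13 (olaparib) without it. Of the markers of other cell types, CD14 was lower than in untreated cells under each of these treatments (mean 423 untreated, 67 with olaparib and 136 at 4 µM CDDP), the leukocyte markers summing to 412 to 474 untreated, 66.4 to 73.9 with olaparib and 122 to 169.5 at 4 µM. The mesenchymal markers had 2 of 4 lower at either CDDP dose and 1 of 4 lower with olaparib, and their sum was 14689.9 to 15307 untreated and 13434 to 13923 at 4 µM. The part of these markers in the results was not tested.

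TAP2 rose most, from 386, 466 and 255 to 757, 742 and 709.8 at 4 µM CDDP (1.04 ± 0.13 (SE), adjusted p = 1.3e-07), with no overlap. PSMB9 went from 598, 525 and 613 to 979, 909 and 1048 (0.76 ± 0.11 (SE), adjusted p = 1.8e-06). PSMB8 went from 640.1, 706 and 428 to 912, 914 and 952 (0.68 ± 0.12 (SE), adjusted p = 3.6e-05). TAP1 rose by less, at 0.53 ± 0.19 (SE) (adjusted p = 0.024), and lost its call without library untreated 2 or CDDP 4 µM 2 (0.31 to 0.47, adjusted p = 0.0868 to 0.208). NLRC5 went down to 90.4, 116 and 75.5 (-1.33 ± 0.28 (SE), adjusted p = 0.00023). B2M fell from 20542, 22477 and 24712 to 13608, 15063 and 14150.3 (-0.66 ± 0.09 (SE), adjusted p = 3.3e-07), and TAPBP from 2448, 2494 and 3256 to 1618, 1592 and 1589 (-0.76 ± 0.09 (SE), adjusted p = 3.5e-08). HLA-B fell by 0.29 on the log2 scale (adjusted p = 0.001), to 5009, 4944 and 5121. Without the third untreated library these 8 calls remained, with TAP2 at 0.79, PSMB8 at 0.46, B2M at -0.59 and TAPBP at -0.63.

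At 2 µM, PSMB8, PSMB9 and TAP2 had log2 fold changes of 0.70, 0.82 and 0.94 (adjusted p = 3.8e-05, 8.5e-07 and 1.3e-06). NLRC5, TAPBP and HLA-B had -1.20, -0.38 and -0.27 (adjusted p = 0.0011, 0.0014 and 0.0028). Without the third untreated library TAPBP was at -0.25, PSMB8 at 0.48 and TAP2 at 0.70 (adjusted p = 0.026, 0.0008 and 1.4e-05), and the TAPBP and HLA-B calls were lost in a fit of only the groups compared. B2M, at 20304, 19494 and 18996, had -0.20 ± 0.09 (SE) (adjusted p = 0.082), and -0.13 without the third untreated library (adjusted p = 0.29). HLA-C at 1076, 1435 and 734 overlapped the untreated libraries, and its log2 fold change of 0.55 (adjusted p = 0.037) lost its call without library untreated 3 or CDDP 2 µM 1 or 2 (0.15 to 0.52, adjusted p = 0.0928 to 0.557), the untreated library giving the lowest value.

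Olaparib alone was followed in SUM1315 by higher HLA-C, at 1453, 1537 and 1421 (1.04 ± 0.20 (SE), adjusted p = 0.00013), with no overlap with untreated cells. Without the third untreated library this was 0.64 (adjusted p = 0.003). PSMB9 rose (0.59 ± 0.11 (SE), adjusted p = 0.00011), TAPBP fell (-0.35 ± 0.09 (SE), adjusted p = 0.0026), and HLA-B and B2M did not pass the test (adjusted p = 0.094 and 0.41). TAP2, PSMB8 and NLRC5 passed the test at 0.52, 0.34 and -0.93 (adjusted p = 0.0026, 0.029 and 0.0087), and all 3 calls were lost without the third untreated library, at 0.28, 0.13 and -0.81 (adjusted p = 0.066, 0.42 and 0.0504). PSMB9 and TAPBP were at 0.63 and -0.22 without it and kept their calls (adjusted p = 0.00017 and 0.047). PSMB8 also lost its call without olaparib library 1 or 3.

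The interferon response genes, many of them under the same factors as the class I genes, were read beside them. Over all genes in SUM1315, 18.9% were higher and 17.1% lower with olaparib, and 22.2% and 21.7% at 4 µM CDDP. In MDA-MB-468 these shares were 12.4% and 9.11% with olaparib, and 13.3% and 11.8% at 2.5 µM CDDP. In SUM1315, 13 of 24 were higher and 2 lower with olaparib (median 0.72), and 17 were higher and 1 lower at 4 µM CDDP (median 1.12). In MDA-MB-468, 4 of 20 were higher and 2 lower with olaparib (median -0.03), and 4 higher and 0 lower at 2.5 µM CDDP (median 0.29). Of the 17 regulators, 4 were higher and 1 lower with olaparib and 6 higher and 2 lower at 4 µM CDDP in SUM1315, and 1 higher and 3 lower under either drug in MDA-MB-468. Of the 12 other class I pathway genes, 3 were higher and 4 lower at 4 µM CDDP in SUM1315 (median -0.34), and 1 higher and 2 lower at 2.5 µM in MDA-MB-468 (median -0.07).

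In MDA-MB-468 each drug alone was also compared with untreated cells. With olaparib 3 genes were higher and 0 lower (12.4% and 9.11% of all genes), with 1 µM CDDP 1 and 0 (10.6% and 9.41%), and with 2.5 µM CDDP 4 and 0 (13.3% and 11.8%). The shares of lower genes are small for a set of 9, so the lack of called decreases says little about the set. The count at 1 µM is near the share over all genes. PSMB9 went from 143, 154 and 110.4 to 201, 204 and 231 at 2.5 µM CDDP (0.65 ± 0.14 (SE), adjusted p = 0.00023) and to 218, 218 and 153 with olaparib (0.52 ± 0.14 (SE), adjusted p = 0.0033), where the groups overlapped. PSMB8 rose with each drug and dose, by log2 fold changes of 0.23 (olaparib), 0.33 (1 µM) and 0.26 (2.5 µM), with adjusted p of 0.02, 0.00089 and 0.0083. TAP2 rose with olaparib, from 518, 519 and 491 to 650.3, 552 and 599.8 (0.24 ± 0.08 (SE), adjusted p = 0.022). HLA-B rose at 2.5 µM, from 2387, 2446 and 2494 to 2743, 2715 and 2828 (0.18 ± 0.05 (SE), adjusted p = 0.0043). B2M was at 0.16 ± 0.06 (SE) (adjusted p = 0.048), a call that was lost without library untreated 1 or 3 or CDDP 2.5 µM 2 or 3 (0.13 to 0.15, adjusted p = 0.128 to 0.182). With olaparib, PSMB8 lost its call without library untreated 1 or 2 or olaparib 1 (0.18 to 0.23, adjusted p = 0.0543 to 0.127), PSMB9 without library untreated 3 (0.38, adjusted p = 0.0616) and TAP2 without library untreated 3 or olaparib 1 (0.18 to 0.21, adjusted p = 0.0901 to 0.156). At 2.5 µM, PSMB8 lost it without library untreated 2 or CDDP 2.5 µM 2 (0.21, adjusted p = 0.0629 to 0.0677). The medians of the 9 genes were 0.06, -0.07 and 0.18, and those of all genes 0.01, -0.01 and 0.01. NLRC5 had log2 fold changes of 0.02, -0.11 and 0.09, none past the threshold.

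The CDDP response at the higher dose differed between the lines for 6 of the 9 genes, 4 more negative and 2 more positive in SUM1315 (13.9% and 13.7% of all genes), although the doses differ (4 and 2.5 µM). The differences were -1.42 ± 0.36 (SE) for NLRC5 (adjusted p = 0.0019), -0.81 ± 0.11 (SE) for B2M (adjusted p = 5.6e-08), -0.66 ± 0.11 (SE) for TAPBP (adjusted p = 5.4e-06) and -0.46 ± 0.06 (SE) for HLA-B (adjusted p = 2.6e-07). They were 0.85 ± 0.16 (SE) for TAP2 (adjusted p = 4e-05) and 0.42 ± 0.15 (SE) for PSMB8 (adjusted p = 0.027), the last of which was lost without library MDA-MB-468 untreated 3, MDA-MB-468 CDDP 2.5 µM 1 or 3, SUM1315 untreated 3 or SUM1315 CDDP 4 µM 3 (0.21 to 0.41, adjusted p = 0.0518 to 0.231). For olaparib, at 8 and 3 µM, 1 gene was more positive and 1 more negative in SUM1315 (9.99% and 9.89%): HLA-C at 1.04 ± 0.25 (SE) (adjusted p = 0.0017) and NLRC5 at -0.96 ± 0.36 (SE) (adjusted p = 0.0497). The HLA-C difference was 0.64 (adjusted p = 0.0174) without the third untreated SUM1315 library, and its call was lost in a fit of only the groups compared. The NLRC5 call was lost without library MDA-MB-468 untreated 1 or 2, MDA-MB-468 olaparib 1 or 2, SUM1315 untreated 2 or 3 or SUM1315 olaparib 2 or 3 (-0.94 to -0.83, adjusted p = 0.0699 to 0.139).

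Adding CDDP to olaparib, and olaparib to CDDP, asked what the combination did beyond each drug. In SUM1315, 0 of the 9 genes passed the test between olaparib with 4 µM CDDP and olaparib alone in the limma fit (4.35% of all genes were higher and 4.09% lower). At an unadjusted p under 0.05 there were 3 genes of the 9, and 0 passed with limma voom and 2 in a fit of only the groups compared. Against 4 µM CDDP alone, 2 were higher and 0 lower (6.32% and 6.52%), and 6 were called in a fit of only the groups compared. B2M was at 21400.5, 20461 and 22199 with both drugs, against 13608, 15063 and 14150.3 with CDDP (0.58 ± 0.09 (SE), adjusted p = 3.1e-05), and HLA-B at 6533, 6602 and 6639 against 5009, 4944 and 5121 (0.39 ± 0.07 (SE), adjusted p = 0.00018). The groups did not overlap for either gene, and the levels with both drugs lay between the lowest and highest olaparib-treated libraries for B2M. TAPBP had 0.25 ± 0.09 (SE) (adjusted p = 0.069).

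In MDA-MB-468, olaparib with 2.5 µM CDDP against olaparib had 1 gene higher and 2 lower (10.1% and 13.1%). TAP1 rose from 103, 97.9 and 95.6 to 133, 169 and 158 (0.62 ± 0.17 (SE), adjusted p = 0.0044). HLA-C and TAPBP fell, by log2 fold changes of -0.27 ± 0.08 (SE) and -0.32 ± 0.07 (SE) (adjusted p = 0.0063 and 0.00021). Against CDDP, 3 were lower and 0 higher (7.29% and 4.63%), namely TAPBP (-0.33 ± 0.07 (SE), adjusted p = 0.0004), HLA-C (-0.29 ± 0.08 (SE), adjusted p = 0.0068) and B2M (-0.18 ± 0.06 (SE), adjusted p = 0.038). TAPBP was at 845, 909 and 878 with both drugs, below every other parental MDA-MB-468 library. B2M lost its call without library CDDP 2.5 µM 2 or 3 or olaparib + CDDP 2.5 µM 1 or 2 (-0.17 to -0.14, adjusted p = 0.114 to 0.193) and HLA-C without library olaparib + CDDP 2.5 µM 3 (-0.25, adjusted p = 0.0633), and HLA-C against olaparib without library olaparib 2 or olaparib + CDDP 2.5 µM 3 (-0.23 to -0.19, adjusted p = 0.0561 to 0.102). The 2 comparisons of each line share the libraries of the combination. The medians over the 9 genes were 0.02 (against olaparib) and 0.25 (against CDDP) in SUM1315 and -0.10 and -0.13 in MDA-MB-468, and those over all genes -0.01, 0.00, -0.00 and 0.00.

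The comparison of CDDP-treated with untreated OlaR cells asked which of the 9 genes changed with CDDP in OlaR cells. In SUM1315, 1 was higher and 1 lower at 4 µM (7.13% and 9.61% of all genes), and in MDA-MB-468 1 was higher and 0 lower at 2.5 µM (7.43% and 11.2%). For a set of 9 genes these counts are near the shares over all genes, so they do not set the group apart. TAP2 was the higher one in both. In SUM1315 it went from 466, 446 and 407 to 597, 592 and 596 (0.44 ± 0.13 (SE), adjusted p = 0.022). In MDA-MB-468 it went from 467.5, 409 and 384 to 532, 508 and 462 (0.26 ± 0.08 (SE), adjusted p = 0.015), and the groups overlapped. TAPBP fell in OlaR SUM1315 cells (-0.29 ± 0.09 (SE), adjusted p = 0.024). The SUM1315 calls were lost without library OlaR 3 or OlaR + CDDP 4 µM 1 or 3 (0.38 to 0.44, adjusted p = 0.0533 to 0.0923) for TAP2 and without library OlaR 1 or 2 or 3 or OlaR + CDDP 4 µM 1 or 3 (-0.30 to -0.26, adjusted p = 0.0605 to 0.103) for TAPBP, and the MDA-MB-468 call without library OlaR 2 or 3 or OlaR + CDDP 2.5 µM 1 or 2 (0.19 to 0.24, adjusted p = 0.0503 to 0.121). The SUM1315 TAPBP call and the MDA-MB-468 TAP2 call were also lost with limma voom. HLA-B was at 2081, 2119.5 and 2209 with CDDP in OlaR SUM1315 cells (-0.02 ± 0.07 (SE), adjusted p = 0.86).

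The effect of CDDP was then compared between OlaR and olaparib-treated parental cells. In SUM1315, 0 of the 9 genes differed by the limma test (1.99% of all genes were more positive in OlaR cells and 4.41% more negative), with 1 at an unadjusted p under 0.05, 0 with limma voom and 1 in a fit of only the groups compared. In MDA-MB-468, 3 were more positive and 0 more negative (7.58% and 7.47%): TAP2 at 0.39 ± 0.11 (SE) (adjusted p = 0.011), HLA-C at 0.33 ± 0.11 (SE) (adjusted p = 0.032) and TAPBP at 0.26 ± 0.09 (SE) (adjusted p = 0.047). The HLA-C and TAPBP calls were lost with limma voom. The HLA-C call was also lost without library olaparib 2, olaparib + CDDP 2.5 µM 2 or 3, OlaR 3 or OlaR + CDDP 2.5 µM 3 (0.24 to 0.30, adjusted p = 0.0833 to 0.143), and the TAPBP call without library olaparib 1 or 2 or 3, olaparib + CDDP 2.5 µM 1 or 3, OlaR 1 or 2 or 3 or OlaR + CDDP 2.5 µM 1 or 2 (0.24 to 0.28, adjusted p = 0.0545 to 0.107).

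**Figure D4:**
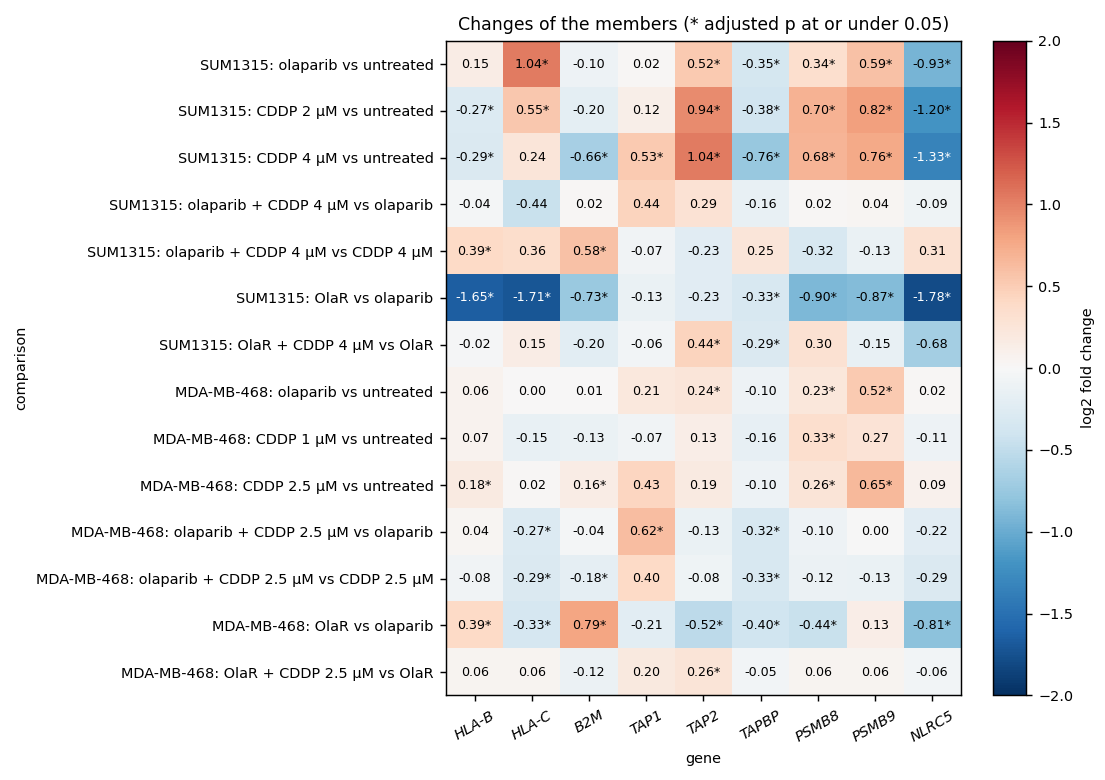
Log2 fold change of each gene in the 14 treatment and resistance comparisons, coloured from blue (lower) to red (higher), with an asterisk for an adjusted p of at most 0.05. Of the 126 values, 54 passed the test, 32 in SUM1315 and 22 in MDA-MB-468, and the OlaR comparison of SUM1315 holds the lowest values. In SUM1315, 4.35% to 22.2% of all genes were higher and 4.09% to 25.7% lower, depending on the comparison. In MDA-MB-468 these shares were 4.63% to 23.6% and 7.29% to 27.9%.

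The conditions were ordered by mean level within a line. Most neighbouring conditions overlapped in their libraries, 53 of 72 pairs in SUM1315 and 61 of 72 in MDA-MB-468. Neighbours in such an order are the conditions closest in mean, so frequent overlap is likely for any gene. The share over all genes was not calculated. The counts therefore only describe the set, and their difference between the lines was not tested. In SUM1315, mean HLA-B was highest in the combination and olaparib conditions (up to 6817). Untreated cells came next (6140.0 ± 374, SD, n = 3), then both CDDP doses (5089.6 ± 60.5 and 5025 ± 89.5). The OlaR conditions were lowest (down to 2137). Libraries did not overlap between these steps, but the highest untreated one (6525) lay just below the lowest with olaparib and 4 µM CDDP (6533). Olaparib against untreated cells did not pass the limma test for HLA-B (adjusted p = 0.094). B2M in MDA-MB-468 was highest in OlaR cells (9544 ± 241), then in OlaR cells with 2.5 µM (8783 ± 131) and 1 µM CDDP (7656 ± 225), each step without overlap, and the parental conditions followed. In SUM1315, NLRC5 had untreated cells alone at the top (237 ± 43.3), the 5 treated parental conditions next and the OlaR conditions last. TAP1 had no step without overlap in either line.

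Over the 9 condition means of SUM1315, the log2 levels of 25 of the 36 pairs of these genes had a Pearson r above 0.5, with a median of 0.68. NLRC5 had an r of 0.93 with HLA-B and 0.92 with B2M. In MDA-MB-468, 13 of 36 pairs had an r above 0.5, the median was -0.05, and NLRC5 had an r of -0.91 with HLA-B and -0.89 with B2M. The points share libraries between genes and 3 of the 9 are OlaR conditions, so these values are a description. Among 9000 other genes, ANKRD22, APH1A, the interferon-induced MX1, SGMS2 and RRM2B were most like the mean profile of the set, with a smaller of the within-line r of 0.87, 0.87, 0.86, 0.85 and 0.83 over 9 conditions per line.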

How the data were processed

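RNA of 54 libraries was made into 3′ mRNA libraries (QuantSeq 3′ FWD, 1 tag per transcript, so counts are not divided by length) and sequenced. The authors aligned reads to hg38 with STAR, counted them with HTSeq and deposited signal values, that is read counts that edgeR had equalised to a common library size within each condition, and these adjusted read counts were used here. The submitters' processing notes also name FastQC and CASAVA 1.8.2. Deposited tables of the authors' own fold changes and p-values were not used. The original reads per gene were recovered by inverting that adjustment, and 100% of the 1483380 values were recalculated within a relative difference of 1e-06. They gave depths and a limma voom alternative.

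The 9 genes, the lists and the tests were chosen with earlier results of these data known. All 9 genes are named, and genes named from the lists are called ones with the largest changes. Some genes of the lists are not reported here. Genes under 10 in all but 2 or fewer libraries of a fit were dropped (a minimum of 3 libraries at 10). Per line, 27 libraries were fitted with limma 3.58.1 (R 4.3.3, trend on mean level) to log2(value + 1), which understates changes of low genes. The lines were compared in 1 fit of all libraries. A gene was called at a Benjamini-Hochberg adjusted p of at most 0.05 over all genes, with no limit on fold. On simulated data fitted changes were recovered. False calls exceeded the nominal rate mainly among genes of low level, so counts over all genes hold some of these. Replicates differed by more than counting noise (chi-square per degree of freedom from 1.57 to 20.6), and none was a duplicate. Genes most like the set were ranked by the smaller of the Pearson r within the lines between log2 condition means and the mean profile of the set. For that profile each gene of the set was centred on its own mean but not scaled by its spread, so genes with larger changes weigh more. The labels' protocols give drug doses in mM where sample titles give µM, and titles were followed, also for the higher CDDP dose in MDA-MB-468.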

Additional observations from a re-analysis of the deposited data

Results flagged for a closer look

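Each result here is a difference of 2 log2 fold changes that passed a test of the difference itself (limma, adjusted over all genes). No explanation of them was tested.

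For OlaR against olaparib-treated parental cells, SUM1315 minus MDA-MB-468 gave -2.038 for HLA-B (adjusted p = 1.89e-28), -1.529 for B2M (adjusted p = 2.88e-16), -1.38 for HLA-C (adjusted p = 1.08e-05), -1.0 for PSMB9 (adjusted p = 2.29e-05), -0.9712 for NLRC5 (adjusted p = 0.0247) and -0.4541 for PSMB8 (adjusted p = 0.011). For HLA-B and B2M the changes had opposite signs in the lines, with no overlap of libraries in either. The NLRC5 call was lost with limma voom and in 3 fits with 1 library left out.

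For the higher CDDP dose against untreated cells, the same difference was -1.421 for NLRC5 (adjusted p = 0.00191), -0.8139 for B2M (adjusted p = 5.58e-08), -0.6639 for TAPBP (adjusted p = 5.36e-06), -0.4645 for HLA-B (adjusted p = 2.58e-07), 0.8519 for TAP2 (adjusted p = 3.96e-05) and 0.4225 for PSMB8 (adjusted p = 0.0266). B2M and HLA-B fell in SUM1315 and rose in MDA-MB-468. For olaparib it was 1.038 for HLA-C (adjusted p = 0.00166), which was 0.64 without the third untreated SUM1315 library and lost its call in a fit of only the groups compared, and -0.9574 for NLRC5 (adjusted p = 0.0497). The NLRC5 call with olaparib was lost without a filter and in 8 fits with 1 library left out. The PSMB8 call with CDDP was lost in 5 such fits and in a fit of only the groups compared. The doses differed between the lines.

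In MDA-MB-468, the effect of 2.5 µM CDDP in OlaR cells minus that in olaparib-treated parental cells was 0.3876 for TAP2 (adjusted p = 0.0107), 0.3257 for HLA-C (adjusted p = 0.0318) and 0.2649 for TAPBP (adjusted p = 0.0474). The HLA-C and TAPBP calls were lost with limma voom, without a filter and in a fit of only the groups compared. With 1 library left out, the HLA-C call was lost in 5 fits and the TAPBP call in 10.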

How the results depend on the processing

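No called change of the 9 genes reversed under any alternative run. The 71 called changes gave 355 values under other settings, of which 332 kept their call and 23 lost it, and 528 values with 1 library left out, of which 456 kept it and 72 lost it. Fits of only the groups compared, which have fewer samples, called 3 genes in place of 6 for olaparib and 4 in place of 7 for 2 µM CDDP in SUM1315, 2 in place of 0 for the combination against olaparib and 6 in place of 2 against CDDP in SUM1315, and 1 in place of 0 for the SUM1315 difference in CDDP effect. In MDA-MB-468 they called 2 in place of 1 for 1 µM CDDP and for CDDP in OlaR cells, and 1 in place of 3 for the difference in CDDP effect, and for the line difference with olaparib 1 in place of 2. Limma voom on recovered reads called 1 in place of 2 for CDDP in OlaR SUM1315 cells, 2 in place of 1 for 1 µM CDDP, 0 in place of 1 for CDDP in OlaR MDA-MB-468 cells and 1 in place of 3 for the MDA-MB-468 difference in CDDP effect. Without a filter the last was also 1, and the line difference with olaparib was 1. The cause of these was not tested. With a fold of at least 2 required, 7 of the 54 calls in the 14 comparisons were left. With 1 library left out, the counts of genes called ranged from 3 (without the third untreated library) to 7 for olaparib, from 6 to 8 for 2 µM CDDP, from 7 to 8 for 4 µM CDDP and from 0 to 3 for CDDP in OlaR cells in SUM1315. They ranged from 1 to 3 for olaparib, from 2 to 4 for 2.5 µM CDDP, from 2 to 3 for both combination comparisons, from 0 to 1 for CDDP in OlaR cells and from 1 to 2 for the difference in CDDP effect in MDA-MB-468. The line differences ranged from 1 to 3 (olaparib), from 5 to 6 (CDDP) and from 5 to 6 (OlaR). OlaR against olaparib kept a count of 7 in each line throughout. All 162 mean levels moved by less than 1 SD when scaled as CPM. CPM used the same library sizes as the adjusted counts, so this was nearly fixed beforehand and does not test the levels. With the replicate number as a block, 53 changes were called in place of 54, and the block ended the calls for B2M at 2.5 µM CDDP and for TAPBP in the MDA-MB-468 difference in CDDP effect. Libraries with the same number did not deviate together (r from -0.0977 to 0.163, median -0.00237, over 108 pairs in SUM1315), so the numbers were not taken as pairs. The edgeR and DESeq2 tests planned for the recovered reads were not run. NLRC5 in CDDP-treated OlaR SUM1315 cells rested on 5 to 25 reads per library, which limits its precision.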
